A study of Mus musculus with 38 samples.

Results

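The positive arm of the circadian clock is made by Arntl (the mouse symbol of Bmal1), Clock and their paralogues Arntl2 and Npas2. These 4 genes, picked by name from the 54532 genes counted, are described here in oligodendrocyte precursor cells (OPCs), the dividing glial cells that mature into myelinating oligodendrocytes. RNA was sequenced from OPCs of mouse forebrain at postnatal days 6 to 7, isolated at 4 zeitgeber times (ZT) of a light and dark cycle, with lights on at ZT0 and off at ZT12. Purification used plates that deplete microglia and endothelial cells and then a plate coated with an antibody to the OPC receptor PDGFRA, and each library pooled 2 mice. Both genotypes were homozygous for floxed Bmal1. Mice labelled NG2::Cre-;Bmal1fl/fl are called WT, and mice labelled NG2::Cre+;Bmal1fl/fl are called KO. NG2 (Cspg4) is a proteoglycan of OPCs that pericytes and other perivascular cells also make, so the driver is not restricted to OPCs. No group carried Cre with an intact Bmal1 gene, so loss of BMAL1 and presence of the transgene cannot be told apart. From ZT0 to ZT18 in steps of 6 h, there were 4, 5, 6 and 4 WT libraries and 4, 7, 4 and 4 KO libraries.

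The 4 proteins belong to the bHLH-PAS family of transcription factors, which bind DNA through a basic helix-loop-helix region and pair through it and through PAS domains. BMAL1 pairs with CLOCK or NPAS2, and the pair binds E-boxes in front of the Per, Cry and Nr1d genes, whose products then repress the pair or its transcription. In most tissues Arntl and Npas2 are rhythmic because REV-ERB and ROR nuclear receptors act on ROR elements of their genes, whereas Clock transcripts vary little over the day. BMAL2, the product of Arntl2, can stand in for BMAL1 as a partner of CLOCK, and NPAS2 can stand in for CLOCK in the brain.

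The labels say that Cre removes the part of Bmal1 that encodes the DNA-binding domain, without naming an exon. The exons that code the run of basic residues are shown because they place this region in the gene models and show how alike the paralogues are there. They come from the GENCODE M21 transcripts on GRCm38, read 5′ to 3′ on the strand of each gene, and the capitals mark the codons of a run of lysine and arginine followed by aspartate.
Arntl exon 8: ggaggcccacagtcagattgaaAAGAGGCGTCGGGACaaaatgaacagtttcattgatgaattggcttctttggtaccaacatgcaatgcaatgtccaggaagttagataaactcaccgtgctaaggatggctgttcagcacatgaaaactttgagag
Arntl2 exon 3: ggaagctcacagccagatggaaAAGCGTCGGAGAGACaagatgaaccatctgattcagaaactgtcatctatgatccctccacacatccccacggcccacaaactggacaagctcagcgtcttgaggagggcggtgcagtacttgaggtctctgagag
Clock exon 6: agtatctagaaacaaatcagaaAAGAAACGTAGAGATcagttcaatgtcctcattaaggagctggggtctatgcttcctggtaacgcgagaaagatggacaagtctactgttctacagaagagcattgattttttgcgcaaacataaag
Npas2 exon 3: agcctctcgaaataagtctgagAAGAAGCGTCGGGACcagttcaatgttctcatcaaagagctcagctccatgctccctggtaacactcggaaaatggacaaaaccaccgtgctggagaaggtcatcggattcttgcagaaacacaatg
The Arntl exon lies at chr7:113284999-113285156 on the plus strand and is exon 8 of 20 in transcript Arntl-201. It has 158 bases, not a multiple of 3, and makes up 5.43% of that transcript and 2.1% of the gene length in the deposited table. The Arntl2 exon at chr6:146809649-146809806 on the plus strand has the same 158 bases in length and matches it at 104 positions (65.8%). The Clock exon at chr5:76265791-76265939 on the minus strand and the Npas2 exon at chr1:39287468-39287616 on the plus strand each have 149 bases and match at 108 positions (72.5%). A count per gene sums all exons, so an Arntl transcript that lacked this region would still be counted. The Arntl count is therefore no check of the genotype labels. An antisense gene, Gm45355, shares 33 exon bases with Arntl (0.44% of them) and had a median of 1.5 counts, and whether counting used strand is not given in the sources used here.

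The median library held 25.9 M (mega) counts, the smallest 19.4 M and the largest 39.0 M. By the rRNA gene share of counts, 8 libraries stood at or below 0.263% and 30 at or above 0.409%. The 8 low-rRNA libraries were 3 of the 6 of WT ZT12, 1 of the 7 of KO ZT6 and all 4 of KO ZT18, so at ZT18 this split and genotype cannot be told apart. RNA of a single sex was found in 13 libraries, 7 female and 6 male. At ZT12 replicates 1 to 4 of WT were female only, while every KO library was mixed. The mixed WT libraries of ZT12, replicates 5 and 6, were low-rRNA. Sex of the RNA and rRNA class were thus both unbalanced between the genotypes at ZT12. Summed OPC markers (20 genes, all detected in every library) reached 16040 to 23935 CPM (counts scaled to a common library total of 1 M), but 20 microglia markers also reached 5294 to 23379 CPM. In KO ZT18 the summed oligodendrocyte markers (13 genes) were 669 to 880 CPM against 402 to 696 in all other groups, and the 12 endothelial markers 153 to 198 against 69.0 to 153. These are bulk samples, so fewer cells of a type and less RNA per cell cannot be told apart.

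All 4 genes passed the filter on low counts. Clock (ENSMUSG00000029238, chr5:76209868-76304792, minus strand) had a median of 2098 counts per library, with a range of 1269 to 2901. Arntl (ENSMUSG00000055116, chr7:113207465-113314126, plus strand) had 564.5 (384 to 934). Arntl2 (ENSMUSG00000040187, chr6:146796055-146833529, plus strand) had 154 (100 to 308). Npas2 (ENSMUSG00000026077, chr1:39193731-39363236, plus strand) had 66 (12 to 170), few enough that counting noise alone gave a coefficient of variation of 12.3% at the median, against 2.18% for Clock. The biological coefficient of variation fitted by edgeR was 13.1% for Arntl and 13.4% for Clock, below the median of 25.2% over all genes tested. It was 26.0% for Arntl2 and 35.0% for Npas2.

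Per kilobase of gene length, Clock was the highest of the 4 at a mean of 5.88 CPM per kilobase (SD 1.05, n = 38 libraries). Arntl followed at 2.91 (SD 0.431), Arntl2 at 1.07 (SD 0.305) and Npas2 at 0.557 (SD 0.211). Among the 22798 genes tested these levels lay at percentiles 63.6, 51.2, 36.8 and 27.7. Clock was thus more abundant than its paralogue Npas2 in these cells, and Arntl more abundant than Arntl2. Levels per kilobase depend on the length used, and these gene lengths exceed those of the transcripts that gave the exons above. They are 13727 against 7478 bases for Clock, 7523 against 2908 for Arntl, 5691 against 1740 for Arntl2 and 4791 against 4236 for Npas2. Of 13 other bHLH-PAS genes and coactivators tested, 9 stood above Clock on the same scale, 3 between Clock and Npas2 and 1, Ahrr, below Npas2 (0.375). The highest were the hypoxia factor genes Hif1a at 34.0 and Epas1 at 30.3 CPM per kilobase, the neural factor gene Npas1 at 31.9 and Arnt2, a general class II partner, at 26.9.

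**Figure D1:**
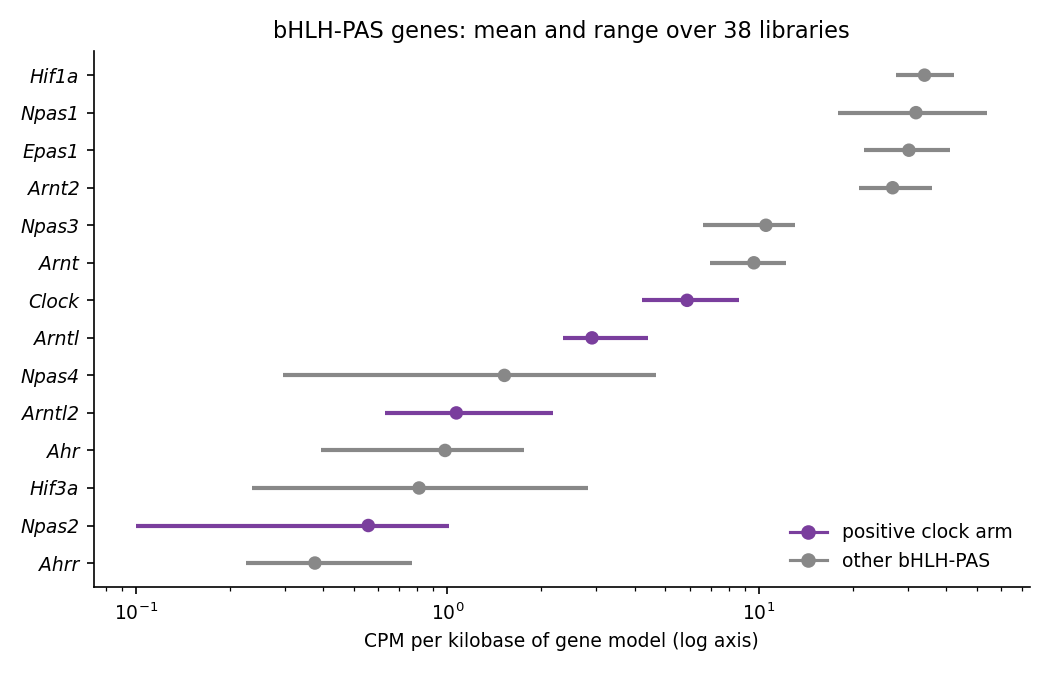
Level of each tested bHLH-PAS gene in CPM per kilobase of gene model on a log axis, with the point at the mean and the line from the lowest to the highest of 38 libraries. Clock (5.88) and Arntl (2.91) lie below Hif1a (34.0), Npas1 (31.9), Epas1 (30.3) and Arnt2 (26.9), and Npas2 (0.557) is the lowest of the purple genes.

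KO was compared with WT over all times and at each time, and the levels were compared across times within each genotype, with edgeR's quasi-likelihood test on 8 groups and 38 libraries. Every adjusted p below is from that test with Benjamini-Hochberg adjustment over the 22798 genes, and a gene is called at an adjusted p under 0.05. Over all times 0 of the 4 genes was called, against 0.0921% of all genes tested. At an unadjusted p under 0.05 stood 1 of the 4, as did 3444 of the 22798 genes. DESeq2 and limma-voom also called 0 of the 4. At ZT12 1 of the 4 was called (Clock, higher), against 5.00% of all genes in either direction and 1.31% higher. At ZT0 (background 0.285%), ZT6 (0.0132%) and ZT18 (2.14%) edgeR called 0 of the 4, with 0, 0 and 2 at an unadjusted p under 0.05 (4191, 1000 and 4144 of the 22798 genes). DESeq2 called 0, 0 and 1 there, and limma-voom 0 at each of these times. The genotype difference depended on time for 1 of the 4 (Clock, background 9.19%). Time of day was called for 0 of 4 in WT (background 4.91%, 1 called by DESeq2 and 0 by limma-voom). In WT 1 of the 4 had an unadjusted p under 0.05 for time of day, as did 3999 of the 22798 genes. Time of day in KO was called for 2 of 4 (Clock and Npas2, background 21.9%).

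**Figure D2:**
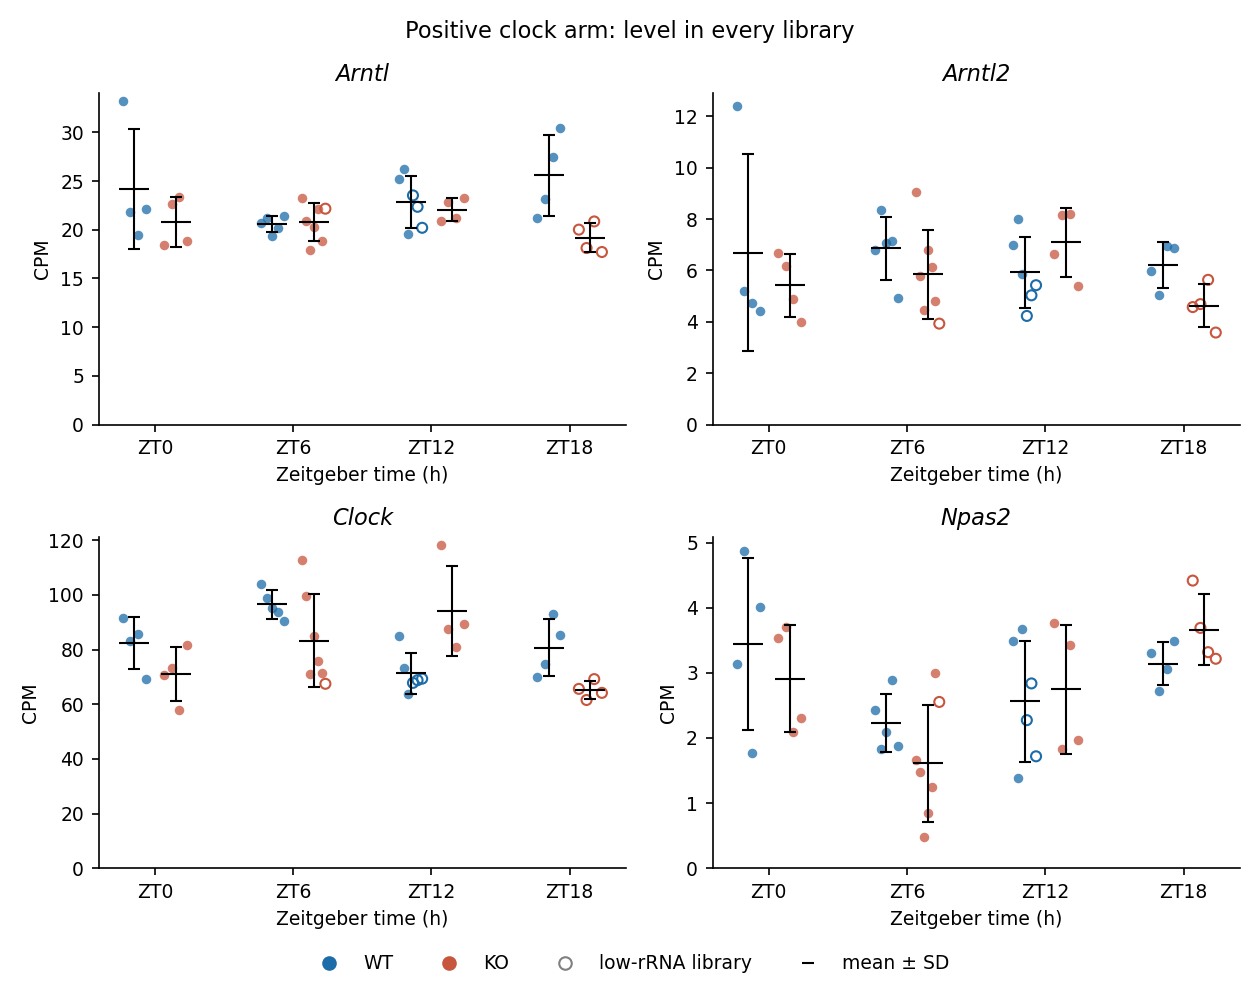
CPM of the 4 genes in every library by zeitgeber time, with WT in blue, KO in red, open circles for the low-rRNA libraries and black bars for the mean ± SD of each group. Clock in KO peaks at ZT12 (94.1) and is lowest at ZT18 (65.1), and Npas2 in KO is lowest at ZT6 (1.61).

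For Arntl, the essential partner in the activator pair, edgeR on all libraries called no genotype difference, though the log2 fold change over all times was negative (-0.17). At ZT0 the WT libraries had 33.2, 21.8, 19.4 and 22.2 CPM and the KO libraries 18.4, 22.6, 23.4 and 18.8. At ZT6 WT had 20.7, 21.2, 19.3, 20.2 and 21.4, and the 7 KO libraries ran from 17.9 through a median of 20.9 to 23.3. At ZT12 the 6 WT libraries ran from 19.5 through a median of 22.9 to 26.2, and KO had 20.9, 22.8, 21.2 and 23.3. The genotypes overlapped at these 3 times. At ZT18 WT had 21.2, 23.2, 27.5 and 30.4 CPM and KO 20.01, 18.1, 20.8 and 17.7, so all 4 KO libraries lay below every WT library, as they did for 8.18% of all genes tested.

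The log2 fold change of Arntl, KO over WT, was -0.42 at ZT18 (SE 0.13, adjusted p = 0.0741), which missed the threshold. DESeq2 placed it past the threshold (-0.45, adjusted p = 0.0353), as did edgeR without WT ZT0 replicate 1 (adjusted p = 0.0372). All 4 KO libraries of ZT18 were low-rRNA libraries with raised oligodendrocyte and endothelial marker sums, and the part of these in the Arntl value was not tested. Over all times the change was -0.17 (SE 0.06, adjusted p = 0.183), and at ZT0, ZT6 and ZT12 it was -0.21, 0.01 and -0.05 with adjusted p of 0.394 to 0.996.

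In WT the order of the Arntl group means was ZT18 (25.6 ± 4.19 CPM, SD, n = 4), ZT0 (24.1 ± 6.16, n = 4), ZT12 (22.8 ± 2.68, n = 6) and ZT6 (20.6 ± 0.818, n = 5). The KO means were 22.0 ± 1.18 at ZT12, 20.8 ± 2.56 at ZT0, 20.8 ± 1.93 at ZT6 and 19.2 ± 1.5 at ZT18. Across the 8 groups the highest mean was 1.33 times the lowest, and no gap between neighbours in the order exceeded the larger of their SDs. A 24 h cosine fitted to WT gave an amplitude of 0.16 on the log2 scale (SE 0.06) with a peak at ZT18.9, and did not pass (adjusted p = 0.258). In KO the amplitude was 0.06 (SE 0.06, adjusted p = 0.795). The difference between ZT18 and ZT6 in WT was 0.31 (SE 0.12, adjusted p = 0.170). A rhythm of Arntl was thus not detectable in either genotype with 4 times in 1 day, and the difference of the cosines was not called either (adjusted p = 0.270).

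Arntl2 encodes BMAL2, which can take the place of BMAL1 in the pair. WT libraries had 12.4, 5.19, 4.73 and 4.41 CPM at ZT0, 6.80, 8.35, 7.07, 7.14 and 4.93 at ZT6, from 4.23 through a median of 5.64 to 8.02 at ZT12, and 5.99, 5.04, 6.94 and 6.88 at ZT18. KO libraries had 6.67, 6.17, 4.88 and 3.98 CPM at ZT0, from 3.93 through a median of 5.79 to 9.06 at ZT6, 6.65, 8.16, 8.19 and 5.39 at ZT12, and 4.57, 4.69, 5.63 and 3.58 at ZT18. The genotypes overlapped at every time, and WT ZT0 replicate 1 had the highest value of the 38 libraries. No comparison of Arntl2 passed, with log2 fold changes of -0.30, -0.23, 0.26 and -0.43 at ZT0, ZT6, ZT12 and ZT18 (SE 0.27, 0.22, 0.24 and 0.27) and adjusted p of 0.411 to 0.974. Over all times the change was -0.17 (SE 0.13, adjusted p = 0.535), and it was -0.06 without WT ZT0 replicate 1. No rise of Arntl2 in KO passed the test.

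In the ratio of Arntl2 to Arntl per kilobase within each library, which no scaling between libraries affects, WT averaged -1.48 ± 0.323 (log2, SD, n = 19) and KO -1.48 ± 0.332 (n = 19). Their difference within times was 0.00447 (permutation of genotype within times, two-sided p = 0.965).

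Clock, the partner that also acetylates histones and BMAL1, was the only member with a genotype call by edgeR on all libraries. Clock was called higher in KO at ZT12, the time of lights off, and its genotype difference was called as dependent on time. Neither call held in every setting given below. At ZT12 the 6 WT libraries ran from 63.6 through a median of 69.1 to 85.1 CPM, and KO had 118, 87.7, 81.0 and 89.4, so 3 of the 4 KO libraries lay above every WT library. At ZT18 WT had 69.8, 74.8, 93.0 and 85.2 CPM and KO 65.6, 61.6, 69.2 and 64.2, all 4 below every WT library (8.18% of all genes). At ZT6 WT had 104, 99.0, 95.3, 93.8 and 90.6, and the KO libraries spread from 67.5 through a median of 75.8 to 113, with 5 of 7 below every WT library and 1 above. At ZT0 the values overlapped, with 91.7, 83.2, 85.9 and 69.2 in WT and 70.8, 73.4, 57.9 and 81.7 in KO.

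The log2 fold change of Clock was 0.40 at ZT12 (SE 0.12, adjusted p = 0.0450). It was -0.22 at ZT0 (SE 0.13, adjusted p = 0.396), -0.21 at ZT6 (SE 0.11, adjusted p = 0.974) and -0.31 at ZT18 (SE 0.13, adjusted p = 0.198). The opposite signs left -0.09 over all times (SE 0.06, adjusted p = 0.541). The dependence on time was called (adjusted p = 0.0153), but not with a term for the rRNA class (adjusted p = 0.287) or without the low-rRNA libraries (adjusted p = 0.309). Without KO ZT12 replicate 1, the highest library, the ZT12 change was 0.28 (adjusted p = 0.262) and the dependence on time had an adjusted p of 0.0938. In all, leaving out 1 library ended the ZT12 call for 17 of the 38 libraries. Beside that replicate they were replicates 2 to 6 of WT ZT12 (adjusted p of 0.0517 to 0.0927), 3 and 4 of KO ZT12 (0.0632 and 0.0522), 2 of WT ZT0, 3 and 4 of WT ZT6, 1 and 2 of KO ZT0 and all 4 of KO ZT18 (0.0504 to 0.0529). Without the 8 low-rRNA libraries, which removes ZT18 in KO, the ZT12 change was 0.35 (adjusted p = 0.446), and without the 13 single-sex libraries it was 0.44 (adjusted p = 0.133). The former fit left only female WT libraries at ZT12, and the latter only low-rRNA ones, so neither separates sex or rRNA class from genotype.

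**Figure D3:**
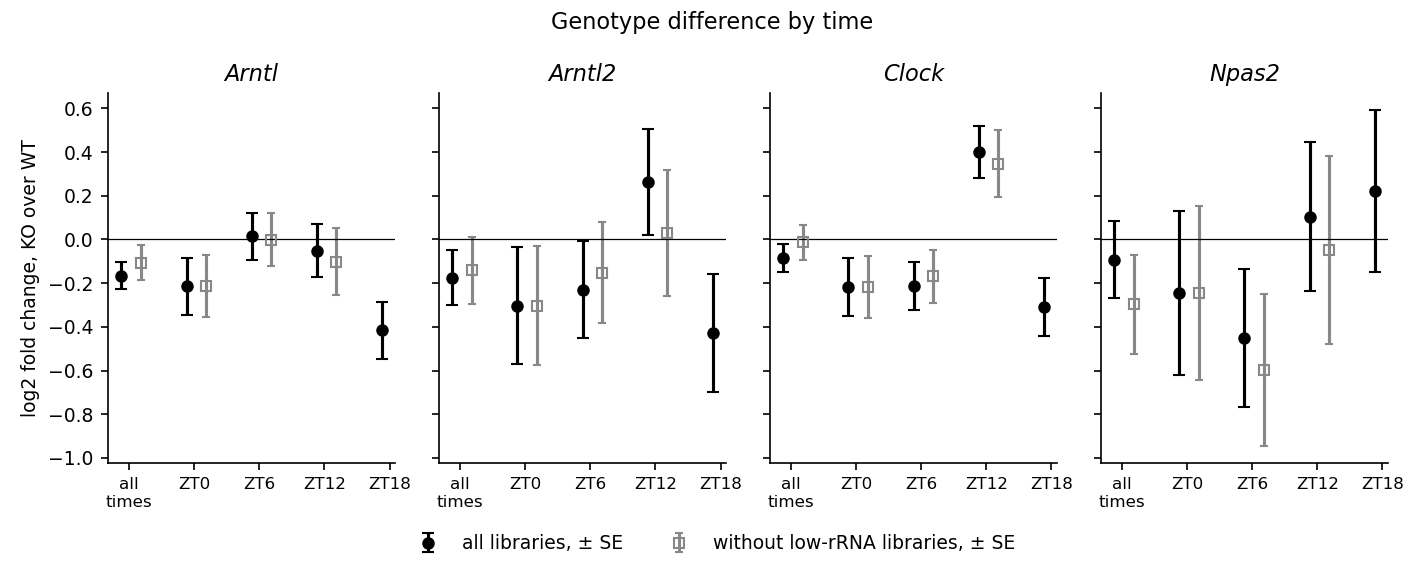
Log2 fold change of each gene, KO over WT, with its SE, over all times and at each time, for all 38 libraries (black circles) and without the 8 low-rRNA libraries (grey squares, no ZT18 value, and all times averaging the other 3). Clock at ZT12 is 0.40 with all libraries and 0.35 without the low-rRNA ones, and its values at the other times are negative.

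Marker sums at ZT12 overlapped between genotypes for microglia (8006 to 14393 CPM in WT, 8856 to 15769 in KO), oligodendrocytes (470 to 696 and 443 to 496) and endothelial cells (95.2 to 151 and 81.4 to 117). In the test at ZT12, 4 of 20 OPC markers were called lower in KO (median of the list -0.27, all genes -0.01), against 3.69% of all genes. Of the oligodendrocyte markers 1 of 12 and of the neuron markers 1 of 20 were called lower, which at 1 gene each cannot be set apart from that share. The mural markers had a median of -0.66, with 1 of 10 values above 0. The part of these cells in the Clock values was not tested.

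Over the day, Clock in WT was highest at ZT6 (96.6 ± 5.20 CPM, n = 5), followed by ZT0 (82.5 ± 9.55, n = 4), ZT18 (80.7 ± 10.4, n = 4) and ZT12 (71.3 ± 7.42, n = 6). In KO the order was ZT12 (94.1 ± 16.4, n = 4), ZT6 (83.3 ± 17.0, n = 7), ZT0 (71.0 ± 9.88, n = 4) and ZT18 (65.1 ± 3.19, n = 4). ZT12 was therefore the lowest time in WT and the highest in KO. Neighbouring means in the order of all 8 groups differed by less than the larger SD, and the highest mean was 1.48 times the lowest. The effect of time was called in KO (adjusted p = 0.0116) and missed the threshold in WT (adjusted p = 0.0798, and 0.0454 with DESeq2). The cosine in KO had an amplitude of 0.26 (SE 0.07) with a peak at ZT9.47 (adjusted p = 0.0405, background 6.91%), and in WT 0.19 (SE 0.07) with a peak at ZT3.21 (adjusted p = 0.205, background 4.10%). The KO cosine missed the threshold in 11 of 38 fits without 1 library (adjusted p up to 0.107): replicates 1 and 3 of KO ZT0, 1, 2 and 4 of KO ZT6, 1 and 2 of KO ZT12, and all 4 of KO ZT18. The difference of the 2 cosines did not pass (adjusted p = 0.0993, background 2.93%). Without the low-rRNA libraries the effect of time in KO had an adjusted p of 0.123, over the 3 remaining times.

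Npas2, the paralogue of Clock, was the least abundant of the 4 and varied the most. It was low at ZT6 and high at ZT18 in KO, and the WT means pointed the same way without passing. At ZT6 the 7 KO libraries ran from 0.481 through a median of 1.47 to 3.00 CPM, and at ZT18 KO had 4.42, 3.69, 3.32 and 3.22, so the KO groups of the 2 times did not overlap, with ZT18 higher (4.47% of all genes). WT had 2.44, 1.83, 2.09, 2.90 and 1.87 CPM at ZT6 and 3.30, 2.73, 3.06 and 3.49 at ZT18, which overlapped at 1 library of each time. At ZT0 WT had 3.14, 4.86, 1.77 and 4.01 CPM and KO 3.54, 3.70, 2.10 and 2.30. At ZT12 WT ran from 1.38 through a median of 2.56 to 3.67, and KO had 3.76, 1.83, 3.43 and 1.98.

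The log2 difference of Npas2 between ZT18 and ZT6 in KO was 1.17 (SE 0.33, adjusted p = 0.0288, background 5.03%). In WT it was 0.50 (SE 0.36, adjusted p = 0.597, background 4.60%). Markers of other cells rose over the same step in KO: 11 of 20 neuron markers (median of the list 1.00 on the log2 scale), 9 of 12 astrocyte (0.95), 7 of 12 endothelial (1.26), 7 of 8 red blood cell (1.54) and 5 of 12 oligodendrocyte markers (0.64), against a median of -0.02 over all genes. Mural (2 of 10, 1.03) and choroid plexus markers (2 of 9, 1.32) rose as well, but microglia markers did not (0 of 20, 0.005). In WT the same step raised 9 of 12 astrocyte (1.18), 4 of 20 neuron (0.85) and 2 of 8 red blood cell markers (0.89). Of the WT endothelial markers 1 of 12 rose and 1 fell (0.41), and 0 of 12 oligodendrocyte markers rose (0.15). The summed neuron markers in KO were 1245 to 1985 CPM at ZT6 and 1980 to 2234 at ZT18, and the part of these cells in the Npas2 value was not tested. Time of day was called in KO (adjusted p = 0.0379) and not in WT (adjusted p = 0.649). The cosine amplitude was 0.61 in KO (SE 0.17, peak at ZT18.3, adjusted p = 0.0468) and 0.33 in WT (SE 0.17, peak at ZT20.5, adjusted p = 0.510). The KO cosine was called in 16 of the 38 fits without 1 library, and in the other 22 its adjusted p reached 0.111 (without KO ZT18 replicate 1). The difference between the cosines was not called (adjusted p = 0.646), nor was the dependence of the genotype difference on time (adjusted p = 0.701), so the genotypes were not shown to differ in Npas2 rhythm. With a term for the rRNA class the ZT18 to ZT6 difference in KO was 1.08 (adjusted p = 0.282), and the effect of time in KO missed the threshold when the low-rRNA libraries (adjusted p = 0.112) or the single-sex ones (adjusted p = 0.124) were left out. Without KO ZT18 replicate 1 the adjusted p was 0.0807 for the effect of time and 0.116 for ZT18 against ZT6. The call on time was also lost without KO ZT0 replicate 1, any of KO ZT6 replicates 1 to 5 or any other KO ZT18 library (adjusted p of 0.0516 to 0.0786). The call on ZT18 against ZT6 was also lost without KO ZT6 replicate 2 or 4 or any other KO ZT18 library (0.0529 to 0.0627).

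No genotype difference in Npas2 passed at any time, with log2 fold changes of -0.25, -0.45, 0.10 and 0.22 at ZT0, ZT6, ZT12 and ZT18 (SE 0.32 to 0.37, adjusted p of 0.781 to 0.974). In order, the group means were 3.66 ± 0.544 CPM in KO ZT18, 3.45 ± 1.32 in WT ZT0, 3.14 ± 0.329 in WT ZT18, 2.91 ± 0.826 in KO ZT0, 2.75 ± 0.990 in KO ZT12, 2.56 ± 0.934 in WT ZT12, 2.23 ± 0.444 in WT ZT6 and 1.61 ± 0.898 in KO ZT6. The highest was 2.27 times the lowest, and neighbours differed by less than the larger SD.

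The log2 ratio of Npas2 to Clock per kilobase averaged -3.43 ± 0.558 in WT (SD, n = 19) and -3.59 ± 0.930 in KO (n = 19), so Clock made up most of this pair in both. The difference within times was -0.04 (permutation within times, two-sided p = 0.824). At ZT18 the ratio was -3.16 ± 0.225 in WT and -2.65 ± 0.228 in KO (n = 4 each). That difference of 0.52 had an exact permutation p of 0.0286, the smallest that 4 against 4 can give, and 0.286 after adjustment over the 10 ratio tests.

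ROR elements in the promoters were searched because REV-ERB and ROR receptors act on the positive arm through them. The motif, AANT followed directly by AGGTNA and read on both strands, occurred in 224 of 32851 RefSeq promoter windows of the GRCm38.p6 build (0.682%), each from 250 bases before to 50 bases after a start site. An Arntl window held 2 of them, as did 3 windows in all (0.00913%). This share depends on the letters chosen, since 1 of the 2 sites ends in AGGTTA and matches only because N allows any base. The half-site AGGTCA alone occurred in 16.3% of windows. These 2 Arntl sites are shown with 10 bases on each side, and the capitals mark the motif.
Arntl site at chr7:113207492-113207521: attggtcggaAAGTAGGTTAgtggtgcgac
Arntl site at chr7:113207528-113207557: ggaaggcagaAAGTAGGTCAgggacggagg
Both lie on the plus strand, with the first motif base 9 bases before and at position 28 after the start site of that window. The windows of Arntl2, Clock and Npas2 held no match to the ROR motif, and no window of the 4 genes held the E-box CACGTG (in 7.15% of windows) or the variant CACGTT (in 4.68%). A match is a description of letters, and its absence says nothing about binding elsewhere.

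Of the receptors that act on such elements, REV-ERBα (Nr1d1) had its highest mean at ZT6 in both genotypes, at 52.8 ± 6.56 CPM in WT (n = 5) and 36.1 ± 17.2 in KO (n = 7). The REV-ERB gene Nr1d2 was lower in KO over all times (log2 fold change -0.55, SE 0.07, adjusted p = 2.43e-05), and Nr1d1 was lower at ZT12 (-0.81, SE 0.25, adjusted p = 0.0472). The activator genes Rora (-0.11, SE 0.07, adjusted p = 0.499) and Rorb (-0.07, SE 0.08, adjusted p = 0.731) were not called over all times.

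Across the 38 libraries Npas2 was lower where Nr1d1 was higher, with Pearson's r of -0.56 (permutation p = 0.00027, adjusted p = 0.00189 over 14 relations) and Spearman's rho of -0.48 (permutation p = 0.00248, adjusted p = 0.0174) on log2 CPM. Without the 2 libraries farthest from the Npas2 median r was -0.48, and without the 2 farthest from the Nr1d1 median -0.58. After subtraction of the group means r was -0.54 (adjusted permutation p = 0.00427), but rho was -0.36 (adjusted permutation p = 0.130) and r without the 2 libraries farthest in Npas2 was -0.33. KO ZT6 replicates 6 and 7 stood apart from their group in both genes, at 3.68 and 4.08 log2 CPM of Nr1d1 against 4.85 to 5.88 and at 1.62 and 1.39 of Npas2 against -0.85 to 0.80. Without these 2, a choice made after their values were seen, r was -0.56 over 36 libraries (adjusted permutation p = 0.00238). With group means subtracted it was then -0.21 (adjusted permutation p = 0.425), so the relation within groups rested on them. Among the 30 other libraries r was -0.55 (adjusted permutation p = 0.0157), and among the 8 low-rRNA libraries -0.62 (adjusted permutation p = 0.314). For Arntl, whose promoter holds the motifs, the relation to Nr1d1 did not pass (r = -0.13, rho = -0.02, adjusted permutation p of 0.525 and 0.914).

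**Figure D4:**
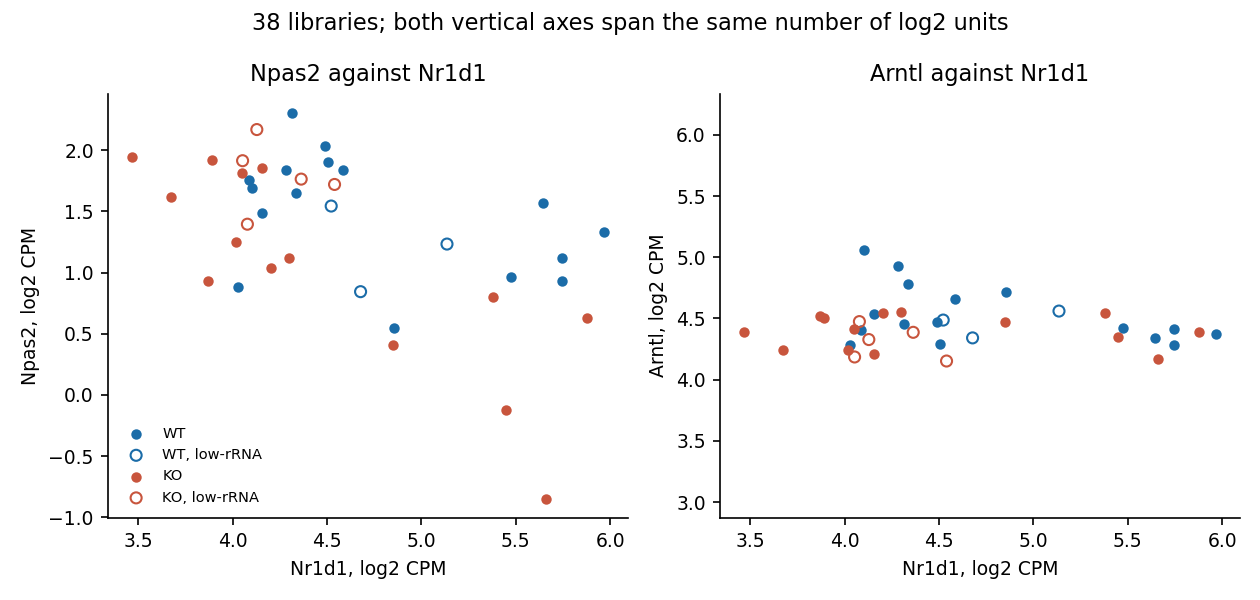
Npas2 (left) and Arntl (right) against Nr1d1 in log2 CPM, 1 point per library (WT blue, KO red, low-rRNA open), with vertical axes of equal span. Npas2 is lower at high Nr1d1 (r = -0.56 over 38 libraries), and for Arntl r is -0.13; the difference of the 2 was not tested.

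Among the members, Arntl2 and Clock rose and fell together (r = 0.59, adjusted permutation p = 0.00182, and rho = 0.64, adjusted permutation p = 0.0007; r = 0.57 without the 2 farthest libraries). With group means subtracted their r was 0.48, among the 30 other libraries 0.45 and among the 8 low-rRNA libraries 0.47 (adjusted permutation p of 0.0116, 0.0449 and 0.403). Within groups, however, rho was 0.46 (adjusted permutation p = 0.0508), and r was 0.35 without the 2 libraries farthest in Arntl2. Without KO ZT6 replicates 6 and 7 the r within groups was 0.40 (adjusted permutation p = 0.1). Arntl and Arntl2 gave r = 0.53 (adjusted permutation p = 0.00331) but rho = 0.37 (adjusted permutation p = 0.0749), and r = 0.37 without the 2 farthest libraries. Clock and Nr1d2 gave r = 0.49 (adjusted permutation p = 0.00683). With group means subtracted their r was 0.44 (adjusted permutation p = 0.0189), but rho was 0.30 (adjusted permutation p = 0.1775). This r within groups was 0.28 without the 2 libraries farthest in Clock. Without KO ZT6 replicates 6 and 7 it was 0.33 (adjusted permutation p = 0.176). The partners Arntl and Clock did not pass (r = 0.24, rho = 0.20, adjusted permutation p of 0.272 and 0.347), nor did the paralogues Clock and Npas2 (r = -0.15, rho = -0.29, adjusted permutation p of 0.509 and 0.166).

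The genes whose log2 CPM followed Clock most closely over the 38 libraries, of 12714 genes with mean log2 CPM above 1, were Phip (r = 0.90), Nktr (0.89), Prpf39 (0.88), Luc7l2 (0.88) and Slc4a7 (0.88). Nktr, Prpf39 and Luc7l2 encode proteins linked to pre-mRNA splicing. Phip and Slc4a7 were also called higher in KO at ZT12 (0.39 and 0.28, adjusted p of 0.0243 and 0.0397), and Nktr, Prpf39 and Luc7l2 were not. A genotype difference dependent on time was called for Phip, Nktr, Luc7l2 and Slc4a7 (adjusted p of 0.00224 to 0.0217), not for Prpf39 (0.0701). The pattern of Clock was thus not particular to it, though these genes were picked for their likeness to it. The median r of all 12714 genes with Clock was -0.11. These r values describe libraries that share depth and scaling, and they carry no test. For Arntl the leading genes were Fgfr1, a fibroblast growth factor receptor (r = 0.69), Krba1 (0.67), Fbxo25 (0.65), Nrbp2 (0.65) and Hdhd5 (0.65). For Arntl2 they were Tbce (0.76), Cspp1 (0.76), Scn8a (0.76), Zkscan2 (0.76) and Mamdc4 (0.75). For Npas2 they were Kank3 (0.71), Plcxd2 (0.71), Zbtb5 (0.71), Nkx2-1 (0.69) and Zfp799 (0.69). None of the other 3 genes of the arm was among the leading 5 of a member.

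Around the positive arm, the repressors of the pair and its outputs were taken as lists. Of 8 clock repressors 1 rose and 1 fell over all times (background 0.0921%): Cry1, a cryptochrome (0.35, SE 0.07, adjusted p = 0.0275), and Per3, a period protein gene (-0.72, SE 0.08, adjusted p = 1.09e-06). The median of the 8 was 0.09, against -0.02 for all genes tested. At ZT12 0 of the 8 were called (background 5.00%). At ZT0 and at ZT6 1 of the 8 fell (0.285% and 0.0132%), and at ZT18 1 rose and 1 fell (2.14%). Of 7 E-box outputs 2 fell at ZT12, against 3.69% of all genes lower at that time: Dbp, a PAR bZIP factor (-1.06, SE 0.17, adjusted p = 0.000491), and Por, the reductase that feeds cytochrome P450 enzymes (-0.40, SE 0.09, adjusted p = 0.00873). Over all times and at ZT0, ZT6 and ZT18 0 of the 7 were called (backgrounds 0.0921%, 0.285%, 0.0132% and 2.14%). Of 23 cofactors and modifiers of CLOCK and BMAL1, 1 rose at ZT12 (background 1.31%), the deubiquitinase gene Usp9x (0.37, SE 0.11, adjusted p = 0.0380), and the median of the 23 was 0.02 against -0.01 for all genes. Without the low-rRNA libraries edgeR called 1 gene at ZT12, against 1139 with all libraries, and Dbp, Por and Usp9x were not followed in that fit. Over all times and at ZT0, ZT6 and ZT18 0 of the 23 were called (the same backgrounds as for the outputs). In 5 of these 23 the genotype difference depended on time (background 9.19%). Time of day was called for 2 of the 23 in WT (Sirt1, a deacetylase that acts on BMAL1, and Crebbp, an acetyltransferase; background 4.91%) and for 6 in KO (background 21.9%).

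Of 15 other bHLH-PAS genes and coactivators 13 were tested. Between KO and WT edgeR called 0 of the 13 over all times and at ZT0, ZT6, ZT12 and ZT18 (backgrounds 0.0921%, 0.285%, 0.0132%, 5.00% and 2.14%). In that order 3, 3, 1, 2 and 3 of the 13 had an unadjusted p under 0.05, as did 3444, 4191, 1000, 4576 and 4144 of all 22798 genes. The dependence on time was called for Epas1 (adjusted p = 0.0310, background 9.19%), time of day in WT for Hif1a (adjusted p = 0.00200, background 4.91%), and time of day in KO (background 21.9%) for Arnt, the general class II partner (adjusted p = 0.0494), and Ncoa3, a coactivator (adjusted p = 0.00137). Beside them, the call of Clock at ZT12 was the single genotype call among the 17 tested bHLH-PAS genes and coactivators, where 5.00% of all genes were called at that time.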

How the data were processed

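The deposited values are raw counts of reads per gene for 38 libraries. Per the submitters' processing notes, the authors used featureCounts 1.5.0-p3, HISAT2 2.0.5 and fastp with GRCm38 (mm10). For the annotation release and strand setting, nothing is given in the sources used here. Sample titles gave the groups and replicate numbers. The deposited counts were filtered with filterByExpr by group, which kept 22798 genes, TMM-scaled, and fitted with edgeR 4.0.16 (glmQLFit, glmQLFTest, R 4.3.3) over the 8 groups, with Benjamini-Hochberg adjustment over all genes tested and calls under 0.05. CPM used TMM-scaled library sizes, and log2 CPM a prior count of 2. The cosine fit used a 24 h period per genotype. Relations and ratios were tested with 100000 permutations, or exactly within a time. Libraries within groups differed by more than sampling noise (76 pairs, smallest chi-square per degree of freedom 10.4). P-values of the tests between groups measure the spread between pools of mice. Those of the relations come from shuffling libraries across all 8 groups, so differences between group means enter them. With group means subtracted, the 38 values were shuffled as if independent, though 8 means had been removed. The test of KO against WT over all times was tried on simulated counts with changes constant over the day. The tests at each time, of time of day and of the cosines were not. Alternatives were DESeq2 1.42.0, limma-voom (limma 3.58.1), other scalings, no filter, a replicate block, a term for the rRNA class, and fits without low-rRNA, single-sex or single libraries.

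The 4 genes, the gene lists and the tests were chosen with earlier results of these data known. Named beside the 4 were Nr1d1, Nr1d2, Rora and Rorb, up to 6 called genes of each list by smallest p, the highest bHLH-PAS levels per length, and the 5 genes most correlated with each member, skipping sex-linked genes, pseudogenes and unnamed gene models. Gm45355, Epas1, Arnt2 and Ahrr as levels, and the cell type marker sums, were added after their values were seen. Exon sequences came from GENCODE M21 (GRCm38) and promoters from RefSeq (GRCm38.p6), in which all 4 genes matched by symbol.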

Additional observations from a re-analysis of the deposited data

Results flagged for a closer look

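Arntl2 in WT ZT0 replicate 1 had 12.41 CPM, while the other 3 libraries of that group had 4.41 to 5.19. Its gap to the nearest was 0.903 of the range of the group, above Dixon's critical value of 0.829 for 4 libraries. The same library had the highest Arntl level, at 33.2 CPM. Of 32 groups examined 1 held such a library, and chance gives about 1 in 20. Without it the Arntl2 difference at ZT0 turned from -0.30 to 0.17 on the log2 scale, with neither past the threshold.

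The Clock difference between KO and WT depended on time of day, with an adjusted p of 0.01529 from edgeR's quasi-likelihood test. It was 0.40 at ZT12 and between -0.31 and -0.21 at the other 3 times. The libraries of ZT12 and ZT18 differ between genotypes in rRNA class, and those of ZT12 also in the sex of the RNA. The dependence on time was not called with the rRNA term (adjusted p = 0.287) or without the low-rRNA libraries (adjusted p = 0.309).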

How the results depend on the processing

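Without the single-sex libraries the log2 difference between KO and WT changed sign for Arntl at ZT0 (0.0275), ZT6 (-0.00618) and ZT12 (0.0538) and for Arntl2 at ZT0 (0.0611). Over time in WT, that setting gave 0.0113 (Arntl) and 0.131 (Arntl2) for ZT12 minus ZT0, 0.00961 (Arntl2) for ZT18 minus ZT6 and, in KO, 0.0309 (Npas2) for ZT12 minus ZT0. Without the low-rRNA libraries Arntl at ZT6 was -0.00209, Npas2 at ZT12 -0.0502, Arntl2 from ZT0 to ZT12 in WT 0.0578 and the log2 ratio of Arntl2 to Arntl -0.0175. With the rRNA term Arntl2 was 0.128 at ZT18, 0.0827 from ZT0 to ZT12 in WT and 0.154 from ZT6 to ZT18 in KO. With group means subtracted r turned to 0.0279 for Arntl2 with Npas2, 0.0387 for Clock with Npas2 and 0.0714 for Arntl with Nr1d1. In the 30 libraries that were not low-rRNA r was 0.0825 for Arntl2 with Npas2. None of these values was called before or after.

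The Clock change at ZT12 missed the threshold with no filter (0.394), the rRNA term (0.303), without the low-rRNA (0.346) or single-sex libraries (0.445) and in a fit of the 2 groups alone (0.416). It stayed past it with DESeq2, limma-voom, RLE scaling and library size alone. The dependence of the Clock difference on time had adjusted p of 0.287, 0.309 and 0.111 with the rRNA term, without the low-rRNA and without the single-sex libraries. Time of day in KO had 0.104 and 0.123 for Clock with the rRNA term and without the low-rRNA libraries. For Npas2 it had 0.0621, 0.0979, 0.112 and 0.124 with no filter, the rRNA term, and without the low-rRNA or single-sex libraries. Past the threshold came Arntl at ZT18 with DESeq2 (-0.454) and in the fit of 2 groups (-0.442), Clock at ZT18 in that fit (-0.335) and Clock over time in WT with DESeq2 (adjusted p = 0.0454). The cause of these shifts was not tested.

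Leaving out 1 library at a time gave ranges of 0.277 to 0.463 for Clock at ZT12 (21 of 38 fits past the threshold) and -0.503 to -0.329 for Arntl at ZT18 (1 of 38). Uncalled differences ran from -0.466 to 0.174 for Arntl2 at ZT0, -0.0155 to 0.0474 for Arntl at ZT6 and -0.0748 to 0.257 for Npas2 at ZT12. Adjusted p ran from 0.00395 to 0.0938 for the dependence of Clock on time (37 of 38 past), 0.0386 to 0.191 for Clock over time in WT (2 of 38) and 0.0101 to 0.0807 for Npas2 over time in KO (28 of 38). From ZT0 to ZT12 the values ran from -0.167 to 0.115 (Arntl, WT), -0.329 to 0.312 (Arntl2, WT) and -0.254 to 0.0778 (Npas2, KO). The log2 ratios ran from -0.119 to 0.0140 (Npas2 to Clock) and -0.0368 to 0.0498 (Arntl2 to Arntl).

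Replicate numbers did not pair the libraries, since same-numbered ones correlated at -0.0908 to 0.240 (median 0.00951, 3 of 17 pairs over 0.1) and others at a median of 0.0122. With the replicate number as a block the Clock change at ZT12 was 0.335 (adjusted p = 0.0952) and that of Clock in KO from ZT6 to ZT18 was -0.441 (adjusted p = 0.0108). The cosines were not run with the block or the rRNA term. Npas2, with a median of 66 counts, is the gene whose differences depth limits most.

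Calls over all genes depended strongly on the setting. At ZT12 they ran from 1 (without the low-rRNA libraries) to 1613 (DESeq2) against 1139, and from 259 (without KO ZT12 replicate 1) to 1357 when 1 library was left out. At ZT18 they ran from 1 (without the single-sex libraries) to 2393 (2 groups alone) against 488, and from 44 (without KO ZT18 replicate 4) to 761 (without KO ZT6 replicate 3) with 1 library left out. For the dependence on time they ran from 0 (edgeR without the low-rRNA libraries, with 2843 at an unadjusted p under 0.05) to 3084 (DESeq2) against 2096, and from 1049 (without KO ZT12 replicate 1) to 3175 (without WT ZT0 replicate 4) with 1 left out. For time of day the other settings gave 2050 to 6367 in KO against 5001 and 487 to 1727 in WT against 1120, and fits without 1 library 3632 to 5301 and 661 (without WT ZT6 replicate 2) to 1449. Over all times the other settings gave 5 to 165 against 21, and at ZT0 1 to 703 against 65. Without WT ZT0 replicate 4 those 2 counts were 633 and 2208, and their lowest with 1 left out were 10 (without KO ZT0 replicate 3) and 1 (without WT ZT0 replicate 2).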
